A study of Homo sapiens with 8 samples.

Results

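8505C and CAL-62 are established human cell lines from anaplastic thyroid carcinoma, and the differences between their RNA with no NR1D1 knockdown are described here. The 8505C library with control siRNA was set against the CAL-62 library with control siRNA, which are 2 of the 8 libraries of the series. Of 58884 genes in the tables, 19945 were protein-coding, and the 10557 protein-coding genes with a mean of at least 5 over both control libraries were compared. The series asks what NR1D1 does in thyroid cancer cells. It also holds an NR1D1 siRNA library of each of these lines, labelled as NR1D1 knockdown, which shows whether a gap between the lines persists. The control libraries are labelled wild type, and no other allele or agent is given. Each group had 1 library, so no value has a replicate error, no p-value is given, and line, culture and library cannot be told apart.

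Anaplastic thyroid carcinoma is the undifferentiated form of follicular cell thyroid cancer, in which cells lose iodine uptake and thyroglobulin synthesis. As background, 8505C carries a BRAF mutation, which activates the MAPK cascade of RAF, MEK and ERK. Cells of follicular origin are specified by the transcription factors NKX2-1, PAX8, FOXE1 and HHEX, and undifferentiated tumours can gain matrix, protease and cytokine genes that thyroid epithelium does not use. None of the results below measures a mutation.

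Values were deposited as TPM, a read count scaled for gene length and library. MT- genes, those of the mitochondrial genome, took 29.3% of TPM in 8505C and 57.2% in CAL-62 with control siRNA, and 28.6% in 8505C and 67.9% in CAL-62 with NR1D1 siRNA. They were therefore left out and the rest rescaled to a sum of 1000000, called rescaled TPM below. The lines come from separately scaled tables, so table and line cannot be told apart. A log2 ratio is 8505C over CAL-62 after adding 1, which understates the gap of low genes. Recovered reads outside MT- genes ranged from 9140000 to 16450000 per library, and intervals on them cover counting error only.

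NR1D1 itself, the nuclear receptor REV-ERB alpha, was lower with its siRNA in both lines. It was 15.7 with NR1D1 siRNA against 25.8 with control siRNA in 8505C, and 31.5 with NR1D1 siRNA against 51.3 with control siRNA in CAL-62. The log2 ratio of 8505C over CAL-62 was -0.97 in the control pair and -0.96 in the NR1D1 siRNA pair, so 8505C was the lower line in both pairs. The control fold of 0.502 had a 95% exact counting interval of 0.425 to 0.592. That interval does not cover the choice of scaling. The log2 ratio of the control pair was -0.62 with a trimmed mean scaling and -0.26 with MT- genes kept.

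Markers of thyroid function were near 0 in both lines. TSHR, the receptor of TSH, was 0.0331 in 8505C and 0.0328 in CAL-62. SLC5A5, the iodide symporter, was listed at 0 in all 4 libraries. Keratins KRT8 and KRT18 were high in both lines together with vimentin, as KRT8 was 453 in 8505C and 401 in CAL-62 and VIM 1737 in 8505C and 1298 in CAL-62. The immune marker PTPRC was 0 in 8505C and 0.106 in CAL-62. MS4A1, a B cell marker, was listed at 0 in all 4 libraries. The 12 immune markers summed to 36 and 134 in the 8505C libraries and to 5.31 and 42.2 in those of CAL-62. CD14 was the one immune marker past the level limit, at 31.6 in 8505C and 2.37 in CAL-62.

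At least 2-fold higher in 8505C were 1054 genes, which is 9.98% of those compared, and at least 2-fold lower were 1829 genes or 17.3%. These shares of all genes are the background for the list counts below. At 4-fold, 1092 genes (10.3%) were apart, 509 (4.82%) higher and 583 (5.52%) lower, and at 16-fold, 199 (1.89%) were higher and 135 (1.28%) lower. The median log2 ratio was -0.18 and the median size of a gap 0.55. The split of the calls depends on the scaling. Before 1 is added, a trimmed mean scaling moves log2 ratios up by 0.36, and keeping the MT- genes moves them up by 0.73. After 1 is added the shift differs by gene, and for genes near 0 in CAL-62 it can turn round. SRGN, for example, was 10.09, 10.27 with the trimmed mean and 9.59 with MT- genes kept. The trimmed mean gives 1699 higher against 1139 lower with a median of 0.18, and MT- genes kept give 2558 higher against 552 lower with a median of 0.55. For TPC-1 against FTC-133, another pair of thyroid cancer lines in the series with empty vector, whose deposited values were read as FPKM and rescaled the same way, 4134 of 10246 genes (40.3%) were at least 2-fold apart, against 2883 of 10557 (27.3%) here.

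**Figure D1:**
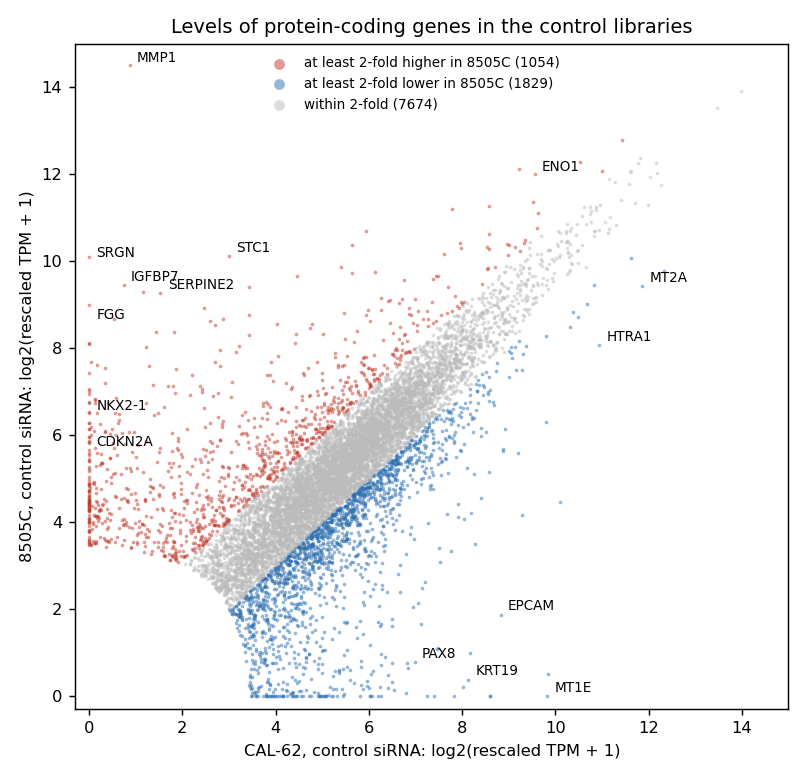
Rescaled TPM of the 10557 genes on a log2 scale after adding 1, with 8505C on the vertical and CAL-62 on the horizontal axis, both with control siRNA, 1 point a gene. MMP1 stands alone at the top left, and points on either axis are genes listed at 0 in 1 of the lines.

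Most gaps were also past 2-fold with NR1D1 siRNA. Of the 1054 genes at least 2-fold higher in 8505C with control siRNA, 866 (82.2%) were at least 2-fold higher with NR1D1 siRNA as well. Of the 1829 lower genes 1416 (77.4%) were at least 2-fold lower. With genes chosen on the NR1D1 siRNA pair, 1514 of 10942 (13.8%) were at least 2-fold higher in that pair and 2339 (21.4%) lower. All 199 genes past 16-fold higher and 134 of the 135 past 16-fold lower stayed past 2-fold. Across genes the gap correlated between pairs with r of 0.915. Genes are not independent replicates, and both libraries of a line come from the same table. Of the 2883 genes past 2-fold, 2683 had a gap wider than the change between control and NR1D1 siRNA in either line. These genes were chosen on that gap, so the count was largely set by the choice. Over all genes the median size of the change was 0.39 in 8505C and 0.35 in CAL-62. Both libraries of 8505C lay above both of CAL-62 for 988 of the 1054 higher genes, and for 24.8% of all genes. They lay below for 1723 of the 1829 lower genes, and for 38.4% of all genes. The control pair is part of this condition, so these counts too were partly set by the choice of genes. The shares of all genes are therefore not a like comparison.

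**Figure D2:**
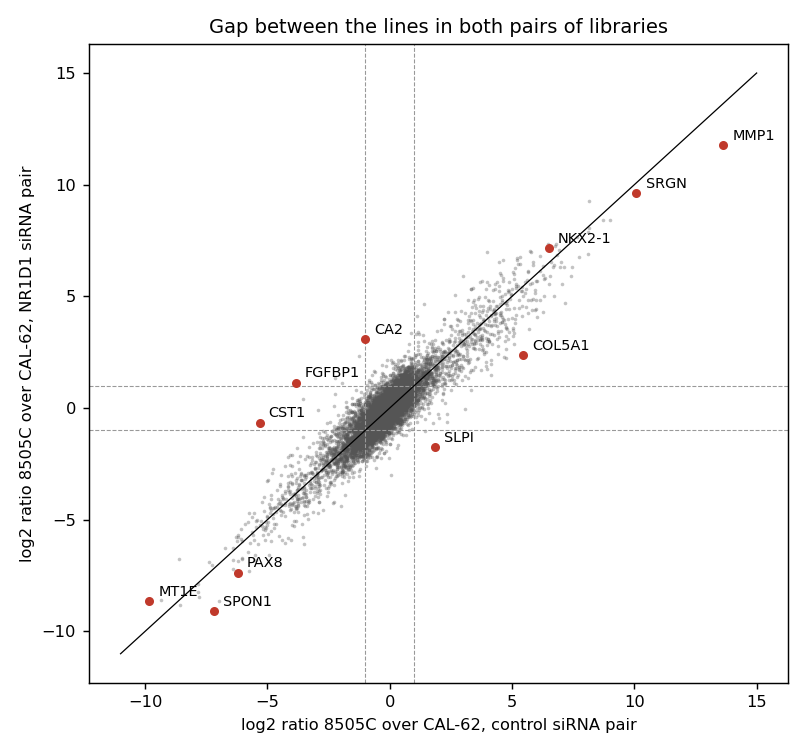
Log2 ratio of 8505C over CAL-62 in the control siRNA pair (horizontal axis) and in the NR1D1 siRNA pair (vertical axis), 1 point a gene, with dashed lines at 2-fold and a solid line of equality. FGFBP1 at -3.85 and 1.14 and SLPI at 1.86 and -1.75 are among the few genes whose gap turned round.

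The lines kept different transcription factors of the thyroid lineage. NKX2-1, the homeodomain factor of thyroid and lung, was 89.6 in 8505C against 0 in CAL-62 with control siRNA and 141 in 8505C against 0 in CAL-62 with NR1D1 siRNA. Set against the limit that 3 reads give, NKX2-1 was at least 291-fold higher in 8505C. PAX8, the paired box factor of thyroid and kidney, was 0.711 in 8505C against 126 in CAL-62 with control siRNA and 0.702 in 8505C against 281 in CAL-62 with NR1D1 siRNA. PAX8 was thus 177-fold higher in CAL-62 (95% counting interval 109 to 311). HHEX was lower in 8505C as well, at 44.8 against 159 in CAL-62 with control siRNA and 29.4 against 135 with NR1D1 siRNA. FOXE1 was low in both lines, at 0.0946 in 8505C and 1.504 in CAL-62. Of 25 thyroid differentiation genes 5 were compared, among them NKX2-1, PAX8, HHEX and GLIS3. The other 20 were under the level limit.

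**Figure D3:**
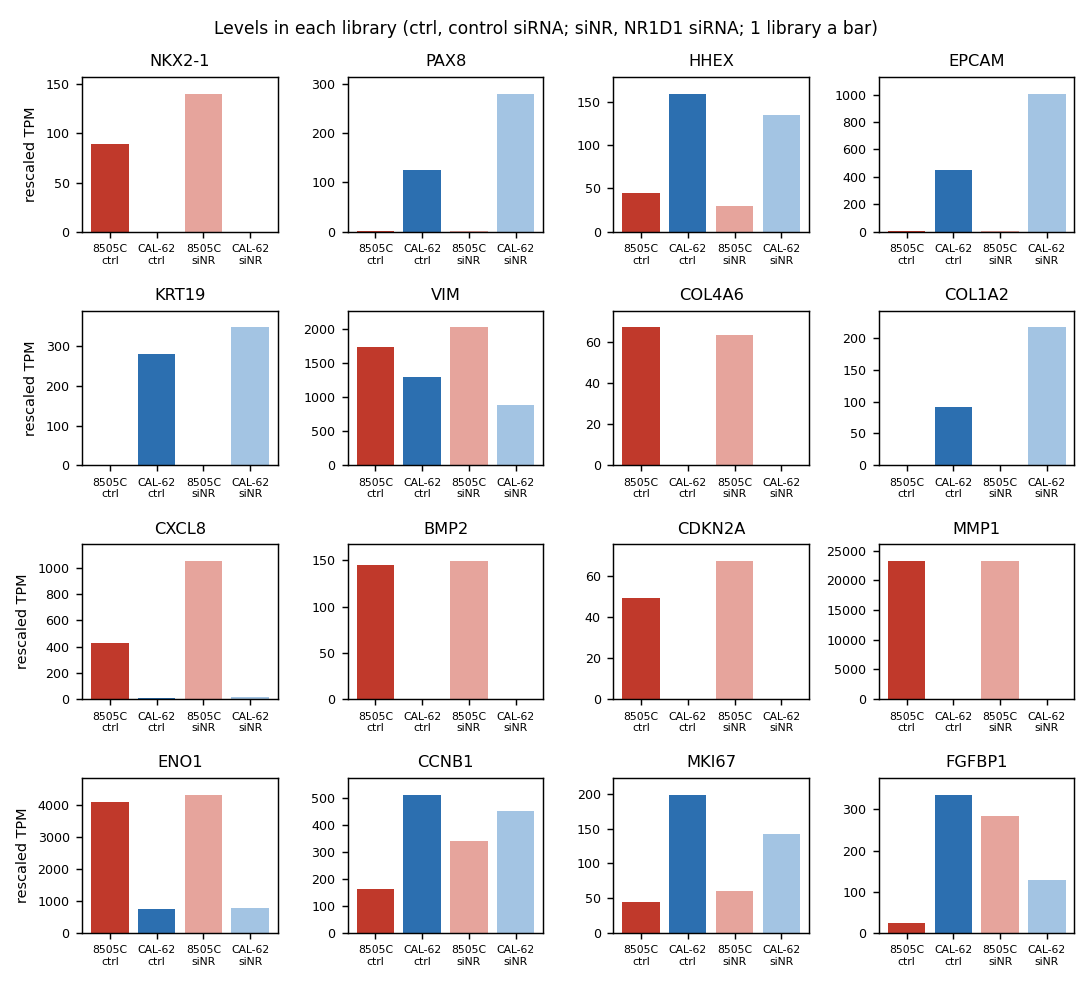
Rescaled TPM of 16 genes, 1 library a bar, with 8505C left of CAL-62 for control siRNA (ctrl) and then for NR1D1 siRNA (siNR). NKX2-1 is at 0 in both CAL-62 libraries and PAX8 near 0 in both of 8505C, while FGFBP1 changes order between pairs.

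Other lineage factors also parted the lines. Of 40 compared, 15 were at least 2-fold higher and 14 at least 2-fold lower in 8505C, with a median of 0.22. NR2F1, an orphan nuclear receptor of neural crest and other embryonic tissue, was 322 in 8505C against 20.7 in CAL-62 with control siRNA and 416 in 8505C against 12.5 in CAL-62 with NR1D1 siRNA. TFAP2A, which marks epidermis and neural crest, had a log2 ratio of 3.71. RUNX2, the factor of bone formation, was 2.16 in 8505C against 75.2 in CAL-62, and IRX4, a ventricular factor in the heart, 0.441 in 8505C against 31.1 in CAL-62. Of 39 HOX genes written, 7 were compared, none was at least 2-fold higher, and HOXB7, HOXB9 and HOXC4 were lower with log2 ratios of -5.55, -3.43 and -3.02. HOXB7 was 0.643 in 8505C against 75.8 in CAL-62 with control siRNA.

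Most drivers of thyroid cancer differed little in level. Of 35 compared, 2 were at least 2-fold higher and 3 at least 2-fold lower in 8505C, and the median of -0.18 was that of all genes. BRAF was 7.63 in 8505C against 19.1 in CAL-62 with control siRNA and 10.2 in 8505C against 23.5 in CAL-62 with NR1D1 siRNA. Under the trimmed mean scaling 5 of the 35 were at least 2-fold higher and none lower, with BRAF at -0.89, and 9 were higher and none lower with MT- genes kept. PIK3CA, the catalytic subunit of PI3-kinase, had a log2 ratio of -1.34, but 35.8% of its exon bases overlap another gene.

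The 2 driver genes higher without either change of scaling were CDKN2A and CDKN2B, neighbouring inhibitors of cyclin-dependent kinases on chromosome 9. CDKN2A was 49.4 in 8505C against 0 in CAL-62 with control siRNA and 67.4 in 8505C against 0 in CAL-62 with NR1D1 siRNA. CDKN2B was 57.6 in 8505C against 0 in CAL-62 with control siRNA and 90.6 in 8505C against 0 in CAL-62 with NR1D1 siRNA. They were at least 219-fold and 240-fold higher in 8505C. MTAP, the gene of methionine salvage beside them, was 15.97 in 8505C against 0.312 in CAL-62, a 51.3-fold gap (30.4 to 94.3). The next compared genes on either side, IFNE and TUSC1, did not share this pattern. IFNE was 10.4 in 8505C against 46.3 in CAL-62, and TUSC1 19.5 in 8505C against 31.9 in CAL-62. A gap of the opposite sign lay on chromosome 16, where CBFB, the partner subunit of RUNX factors, was 0.141 in 8505C against 74.4 in CAL-62. Its neighbours PHAF1, B3GNT9 and TRADD were all listed at 0 in both 8505C libraries, and were 20.8, 13.1 and 8.69 in CAL-62 with control siRNA. CES2, nearby, was 64.3 in 8505C and 46.5 in CAL-62. Both blocks were picked after their values were seen, and DNA copy number was not measured.

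Transcripts downstream of ERK went both ways. Of 27 feedback and output genes, 7 were at least 2-fold higher and 6 at least 2-fold lower in 8505C, with a median of -0.09 in the control pair, 0.63 in the NR1D1 siRNA pair and 0.26 under the trimmed mean scaling. DUSP4 and DUSP6, phosphatases that switch ERK off, were higher in 8505C with log2 ratios of 2.86 and 1.07. DUSP4 was 82.7 in 8505C against 10.6 in CAL-62 with control siRNA and 121 in 8505C against 14.4 in CAL-62 with NR1D1 siRNA. EGR1, an immediate early transcription factor, was lower at 16.2 in 8505C against 239 in CAL-62, and 34.5 in 8505C against 120 in CAL-62 with NR1D1 siRNA. HMGA2, a chromatin protein of embryonic tissue, was 13.8 in 8505C against 119 in CAL-62. Of 29 RAS pathway proteins, 2 were higher and 5 lower, beside 9.98% and 17.3% of all genes. The split was 4 higher and 2 lower with the trimmed mean, and 9 higher and 0 lower with MT- genes kept. The lower genes included the GTPase activating RASA2 at -1.58 and RASAL1, which was listed at 0 in both 8505C libraries and 10.9 in CAL-62 with control siRNA.

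Of 21 growth factor ligands, 5 were at least 2-fold higher and 4 lower in 8505C, and 12 were within 2-fold. Over all genes 9.98% were higher and 17.3% lower. EREG, the EGF family ligand epiregulin, was 406 in 8505C against 0.456 in CAL-62 with control siRNA and 319 in 8505C against 0.186 in CAL-62 with NR1D1 siRNA. Its neighbour EPGN, epigen, was 64.5 in 8505C against 0.359 in CAL-62. VEGFC, the lymphatic growth factor, had a log2 ratio of 4.75 in the control pair and 2.22 in the NR1D1 siRNA pair. GAS6, the ligand of the TAM receptors AXL, MERTK and TYRO3, was 3.10 in 8505C against 122 in CAL-62. Among 19 receptor tyrosine kinases 2 were higher and 6 lower, beside 9.98% and 17.3% of all genes. The median of these kinases, -0.54, turns to 0.17 when MT- genes are kept. FGFR1 was 16.6 in 8505C against 1.34 in CAL-62. MERTK and MST1R, the receptor of MSP, were lower in 8505C with log2 ratios of -2.42 and -2.76, while AXL and TYRO3 were within 2-fold at -0.27 and -0.03. MET was 107 in 8505C against 404 in CAL-62.

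More epithelial junction genes were lower than higher in 8505C. Of 24 compared, 13 were at least 2-fold lower in 8505C and 2 higher, with a median of -2.15 in the control pair, -2.61 in the NR1D1 siRNA pair and -1.83 under the trimmed mean scaling. With MT- genes kept, the median was -0.12 with 9 lower and 6 higher. EPCAM, an adhesion molecule of epithelia, was 2.60 in 8505C against 453 in CAL-62 with control siRNA and 1.51 in 8505C against 1007 in CAL-62 with NR1D1 siRNA. The gap was 174-fold (113 to 285). ST14, the membrane protease matriptase, was 0.239 in 8505C against 88.9 in CAL-62, and the splicing factors ESRP1 and ESRP2 were 0 and 0.118 in 8505C against 16.8 and 36.8 in CAL-62. CDH1, the E-cadherin gene, was listed at 0 in 8505C and at 13.3 in CAL-62. Among the exceptions was the desmosomal cadherin DSC3, 107 in 8505C against 0 in CAL-62.

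Keratins went both ways, with 3 of 8 at least 2-fold higher and 2 lower. KRT19, of simple epithelia, was 0.280 in 8505C against 279 in CAL-62 with control siRNA and 0 in 8505C against 347 in CAL-62 with NR1D1 siRNA, where the 8505C control value rests on 2 reads. KRT14 and KRT17, of stratified epithelia, were higher in 8505C. KRT14 was 22.2 in 8505C against 0 in CAL-62 with control siRNA and 61.1 in 8505C against 0 in CAL-62 with NR1D1 siRNA. Mesenchymal genes had gaps in both directions. Of 23, 5 were at least 2-fold higher and 4 lower, beside 9.98% and 17.3% of all genes, and the median was 0.16. The cadherin CDH2 was 146 in 8505C and 141 in CAL-62, fibronectin (FN1) 1188 in 8505C and 1239 in CAL-62, and ZEB1, a repressor of epithelial genes, 30.4 in 8505C and 31.2 in CAL-62. The contractile genes TPM2 and TAGLN were lower in 8505C, with TPM2 at 20.98 in 8505C against 1090 in CAL-62, while POSTN, a matrix protein, was 15.8 in 8505C against 0 in CAL-62.

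Every one of the 15 collagen genes compared was at least 2-fold apart, 9 higher and 6 lower in 8505C. This depends on the scaling. Under the trimmed mean 9 of 15 were higher and 4 lower, and with MT- genes kept 8 of 13 were higher and 3 lower. The fibrillar chains split. COL1A1 and COL1A2, the chains of type I collagen, were 2.13 and 0.0881 in 8505C against 138 and 91.7 in CAL-62 with control siRNA, and 11.6 and 0.488 in 8505C against 1417 and 217 in CAL-62 with NR1D1 siRNA. COL3A1, of type III collagen, was 41.2 in 8505C against 0 in CAL-62, and 48.9 in 8505C against 0.156 in CAL-62 with NR1D1 siRNA. The fibroblast markers PDGFRA and THY1 were below 1 in all 4 libraries. Of the 10 fibroblast markers, 3 were at 5 or more in 8505C and 2 in CAL-62 with control siRNA. With NR1D1 siRNA, 4 were so in 8505C and 2 in CAL-62. The 10 fibroblast markers summed to 59.5 and 85.6 in the 8505C libraries and to 234 and 1643 in those of CAL-62, most of it type I and type III collagen, and their part in the result was not tested. The median over the 15 collagens was 1.57 in the control pair and -0.01 in the NR1D1 siRNA pair. All 15 were higher with NR1D1 siRNA than with control siRNA in CAL-62, and 12 were so in 8505C. COL5A1, for example, was 140 in 8505C against 2.24 in CAL-62 with control siRNA, and 331 in 8505C against 63.7 in CAL-62 with NR1D1 siRNA. The rise in CAL-62 was not particular to collagens. All 22 adhesion receptors and all 28 cholesterol genes compared were also higher there with NR1D1 siRNA, against 2 of 81 cytosolic ribosomal protein genes. The share over all genes is not given here.

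Gene pairs of type IV collagen, the network of basement membranes, differed in opposite directions. COL4A1 and COL4A2, a head-to-head pair on chromosome 13, were 51.8 and 67.9 in 8505C against 117 and 162 in CAL-62 with control siRNA, log2 ratios of -1.16 and -1.24. COL4A1 is within 2-fold under the trimmed mean scaling, at -0.81. COL4A5 and COL4A6, a head-to-head pair on chromosome X, went the other way. COL4A5 was 140 in 8505C against 4.20 in CAL-62 with control siRNA and 112 in 8505C against 11.03 in CAL-62 with NR1D1 siRNA. COL4A6 was 67.0 in 8505C against 0.0701 in CAL-62 with control siRNA and 63.1 in 8505C against 0.229 in CAL-62 with NR1D1 siRNA. The RefSeq starts of COL4A5 and COL4A6 lie 380 bases apart on opposite strands, so windows from 250 bases before to 50 bases after each start share 121 bases. They are printed because both genes were higher in 8505C. Capitals mark the shared bases, each window is read 5′ to 3′ on its own strand, and the build is GRCh38.p14. COL4A5 is at chrX:108439588-108439887 on the plus strand and COL4A6 at chrX:108439409-108439708 on the minus strand.
COL4A5: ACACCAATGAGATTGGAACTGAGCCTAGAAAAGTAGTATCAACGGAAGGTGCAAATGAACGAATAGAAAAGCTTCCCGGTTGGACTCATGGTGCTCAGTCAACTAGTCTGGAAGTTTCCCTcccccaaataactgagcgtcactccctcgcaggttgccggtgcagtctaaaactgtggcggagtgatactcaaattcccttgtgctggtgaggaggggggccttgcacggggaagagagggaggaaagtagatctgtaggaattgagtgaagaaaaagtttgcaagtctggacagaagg
COL4A6: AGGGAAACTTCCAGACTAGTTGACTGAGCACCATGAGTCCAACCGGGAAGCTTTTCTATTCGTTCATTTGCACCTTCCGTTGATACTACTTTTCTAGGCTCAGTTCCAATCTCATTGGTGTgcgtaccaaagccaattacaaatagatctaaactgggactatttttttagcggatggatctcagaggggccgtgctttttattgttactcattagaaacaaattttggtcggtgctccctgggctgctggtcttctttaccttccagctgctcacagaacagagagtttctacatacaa

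Matrix proteases were led by MMP1, interstitial collagenase. MMP1 was 23268 in 8505C against 0.825 in CAL-62 with control siRNA and 23283 in 8505C against 5.67 in CAL-62 with NR1D1 siRNA. It was the most abundant gene of the comparison in 8505C, at 2.33% of all rescaled TPM in each 8505C library. The ratio of 28187 has a counting interval of 12072 to 86766, since the CAL-62 value rests on 5 reads. MMP3, stromelysin, was 31.98 in 8505C against 0 in CAL-62, and MMP15 and MMP16 had log2 ratios of 3.92 and 3.81. MMP14, the membrane-bound collagenase that activates MMP2, went the other way at 36.7 in 8505C against 273 in CAL-62. Of 25 proteases and inhibitors, 10 were at least 2-fold higher and 6 lower.

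Of 18 serpins and plasminogen activation genes, 6 were at least 2-fold higher and 4 lower. SERPINE2, protease nexin 1, was 618 in 8505C against 1.89 in CAL-62 with control siRNA and 752 in 8505C against 5.88 in CAL-62 with NR1D1 siRNA. TFPI, the inhibitor of tissue factor, was 276 in 8505C against 0 in CAL-62, and its paralog TFPI2 2452 in 8505C against 382 in CAL-62. FGG, the gamma chain of fibrinogen, was 509 in 8505C against 0 in CAL-62. Of 58 paralog pairs with both members compared, 5 went opposite ways past 2-fold and 6 the same way. The opposite pairs included COL4A5 and COL4A1, GATA2 and GATA6, BEX3 and BEX4, and VAMP3 and VAMP8. This depends on the scaling. COL4A1 and GATA6 were within 2-fold under the trimmed mean, at -0.81 and -0.73, and VAMP8 with MT- genes kept, at -0.83. BEX3 and BEX4 stayed opposite past 2-fold under both scalings.

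The list of IGF-binding proteins was higher in 8505C. It also holds genes of other kinds, among them the proteases PAPPA and HTRA1 and the PAPPA inhibitor STC1. Of 11 members compared, 7 were at least 2-fold higher and 2 lower. The median was 2.24 in the control pair and 2.20 in the NR1D1 siRNA pair. IGF-binding proteins hold insulin-like growth factors outside the cell. IGFBP7 was 702 in 8505C against 0.674 in CAL-62 with control siRNA and 995 in 8505C against 1.93 in CAL-62 with NR1D1 siRNA. IGFBP3 was 328 in 8505C against 1.71 in CAL-62. PAPPA, a protease that cuts IGF-binding proteins, had a log2 ratio of 4.51, and STC1, a stanniocalcin that inhibits PAPPA, was 1119 in 8505C against 7.01 in CAL-62. HTRA1, another protease of the list, was 269 in 8505C against 1961 in CAL-62 with control siRNA and 283 in 8505C against 4052 in CAL-62 with NR1D1 siRNA.

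BMP ligands and their secreted antagonist parted. BMP2 was 145 in 8505C against 0.275 in CAL-62 with control siRNA and 149 in 8505C against 0.30002 in CAL-62 with NR1D1 siRNA, and BMP4 33.2 in 8505C against 0.420 in CAL-62. GREM1, a BMP antagonist, was 0.0443 in 8505C against 110 in CAL-62 with control siRNA and 0.0368 in 8505C against 77.5 in CAL-62 with NR1D1 siRNA. ID1 and ID3, genes that BMP signals are known to induce, had log2 ratios of 2.83 and 2.21. INHBA, the activin A subunit, was 10.2 in 8505C against 311 in CAL-62. ENG, the co-receptor endoglin, was 114 in 8505C against 0.496 in CAL-62. In all, 14 of 31 genes of the TGF-beta and BMP list were at least 2-fold higher and 5 lower, with a median of 0.53 in the control pair and 0.07 in the NR1D1 siRNA pair. Endoglin is also an endothelial gene, as are CDH5 (66.2 in 8505C against 0.268 in CAL-62) and TIE1 (12.8 in 8505C against 0 in CAL-62). EGFL7, a further endothelial marker, was 45.1 in 8505C against 4.57 in CAL-62. CDH5, TIE1 and EGFL7 were the 3 endothelial markers compared, and all 3 were at least 2-fold higher in 8505C. VWF was 0.0315 in 8505C and 0 in CAL-62, and CLDN5 and ERG were below 0.1 in all 4 libraries. The 10 endothelial markers summed to 129 and 328 in the 8505C libraries and to 11.5 and 26.4 in those of CAL-62, and their part in the result was not tested.

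Chemokines and cytokines had the highest median of any list with at least 5 members compared. Of 19, 12 were at least 2-fold higher in 8505C and 5 lower, with a median of 2.37 in the control pair and 2.91 in the NR1D1 siRNA pair, and all 17 stayed past 2-fold the same way with NR1D1 siRNA. CXCL8, interleukin 8, was 430 in 8505C against 9.74 in CAL-62 with control siRNA and 1054 in 8505C against 11.2 in CAL-62 with NR1D1 siRNA. The neutrophil chemokine CXCL1 was 682 in 8505C against 9.79 in CAL-62, the monocyte chemokine CCL2 105 in 8505C against 0.328 in CAL-62, and IL6 166 in 8505C against 3.62 in CAL-62. IL18 was 106 in 8505C against 0 in CAL-62. The exceptions were IL32 at -3.66, LIF at -2.25, TNFSF9 at -1.58, CXCL16 at -1.51 and CCL28 at -1.46. PTGS2, cyclooxygenase 2, was 195 in 8505C against 0.124 in CAL-62.

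The CXCL8 promoter window is printed because CXCL8 is a chemokine of the list above and because its window holds the letters TGANTCA, the AP-1 motif, 137 bases before its start. It lies at chr4:73740319-73740618 on the plus strand of GRCh38.p14, and capitals mark the motif.
CXCL8: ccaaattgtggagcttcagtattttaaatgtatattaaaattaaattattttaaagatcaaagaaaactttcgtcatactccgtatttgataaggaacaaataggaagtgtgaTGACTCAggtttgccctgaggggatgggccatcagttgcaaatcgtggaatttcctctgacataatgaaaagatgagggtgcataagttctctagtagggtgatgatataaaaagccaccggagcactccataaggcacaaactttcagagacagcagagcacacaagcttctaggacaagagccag
TGANTCA reads the same on both strands, was chosen after values were seen, and does not overlap the other motif searched, CCGGAA. Of the 10557 genes 8716 had a RefSeq window. TGANTCA stood in 8.44% of the 379 windows of genes at least 4-fold higher in 8505C, in 3.42% of the 439 at least 4-fold lower, in 4.13% of all 8716 and in 7.76% of all 27305 windows of the table. The median window held 19 CpG pairs among the higher genes, 27 among the lower genes and 27 among all 8716. A match is a description of letters.

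Genes of NF-kB signalling were at least 2-fold higher in 8505C or within 2-fold. Of 23, 8 were at least 2-fold higher, none was at least 2-fold lower and the median was 0.25. The log2 ratio was below 0 for 6 of the 23, the lowest at -0.94. TNFAIP3, the inhibitor A20, was 87.3 in 8505C against 1.62 in CAL-62 with control siRNA and 168 in 8505C against 6.56 in CAL-62 with NR1D1 siRNA. SOD2 and NFKBIA, both known NF-kB targets, had log2 ratios of 3.31 and 2.22, while the subunits RELA and NFKB1 were within 2-fold at 0.11 and 0.62. Cytokine receptors followed with 12 of 31 higher and 5 lower. IL13RA2, the decoy receptor of interleukin 13, was 170 in 8505C against 0 in CAL-62, and TNFRSF11B, osteoprotegerin, was 9.13 in 8505C against 215 in CAL-62.

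Of 31 antigen presentation genes 9 were at least 2-fold higher in 8505C, 2 were lower and 20 were within 2-fold, with a median of 0.49 in the control pair and 0.05 in the NR1D1 siRNA pair. HLA-B was 377 in 8505C against 26.7 in CAL-62 with control siRNA and 594 in 8505C against 60.0 in CAL-62 with NR1D1 siRNA, and B2M, the shared light chain, 1331 in 8505C against 514 in CAL-62. ERAP2, which trims peptides, was 225 in 8505C against 15.6 in CAL-62. HLA genes are polymorphic and alike, so reads of an allele far from the assembly can be lost, and how that moves these values was not tested. ULBP1, a ligand of natural killer cells, and CD274, the PD-L1 gene, were lower with log2 ratios of -3.61 and -1.78. Interferon-stimulated genes were mixed, with 10 of 35 higher and 4 lower. IFITM3 was 4427 in 8505C against 598 in CAL-62, and IFITM1 and IFITM2 followed it, though 21.3% to 32.5% of the exon bases of these 3 genes overlap another gene. IFI44 and HERC5 were lower, with log2 ratios of -2.93 and -3.53.

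Of the cancer-testis antigens, MAGE genes of chromosome X were higher in 8505C. MAGEA3 was 274 in 8505C against 0 in CAL-62 with control siRNA and 120 in 8505C against 0 in CAL-62 with NR1D1 siRNA. MAGEA6 was 132 in 8505C against 0 in CAL-62, MAGEA12 69.0 in 8505C against 0 in CAL-62, and MAGEA1 25.8 in 8505C against 0 in CAL-62. These genes are mostly silent in tissues other than the testis. Of 58 written, 14 were compared, 6 were at least 2-fold higher and 6 lower. The lower members were mostly proliferation genes such as TTK and CEP55, and the germ cell gene SYCP2, of the synaptonemal complex, was 0.152 in 8505C against 260 in CAL-62. TDRD9, a helicase of the piRNA pathway, was likewise listed at 0 in both 8505C libraries and was 226 in CAL-62 with control siRNA. The promoter window of MAGEA3 is printed because it is identical to that of MAGEA6 over all 300 bases, and the split of reads between these near-identical copies is uncertain. It lies at chrX:152698544-152698843 on the plus strand, the copy of MAGEA6 at chrX:152769640-152769939 on the minus strand, and capitals mark the ETS core letters CCGGAA, 113 bases before the start.
MAGEA3: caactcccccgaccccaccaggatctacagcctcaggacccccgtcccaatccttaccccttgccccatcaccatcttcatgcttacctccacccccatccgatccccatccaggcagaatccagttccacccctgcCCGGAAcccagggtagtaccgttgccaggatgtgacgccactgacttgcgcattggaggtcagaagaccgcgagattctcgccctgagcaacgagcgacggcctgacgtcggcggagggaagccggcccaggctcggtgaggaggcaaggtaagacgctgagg
On both strands CCGGAA stood in 32.1% of all 8716 windows, 11.1% of the 379 of genes at least 4-fold higher and 21.2% of the 439 at least 4-fold lower.

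**Figure D4:**
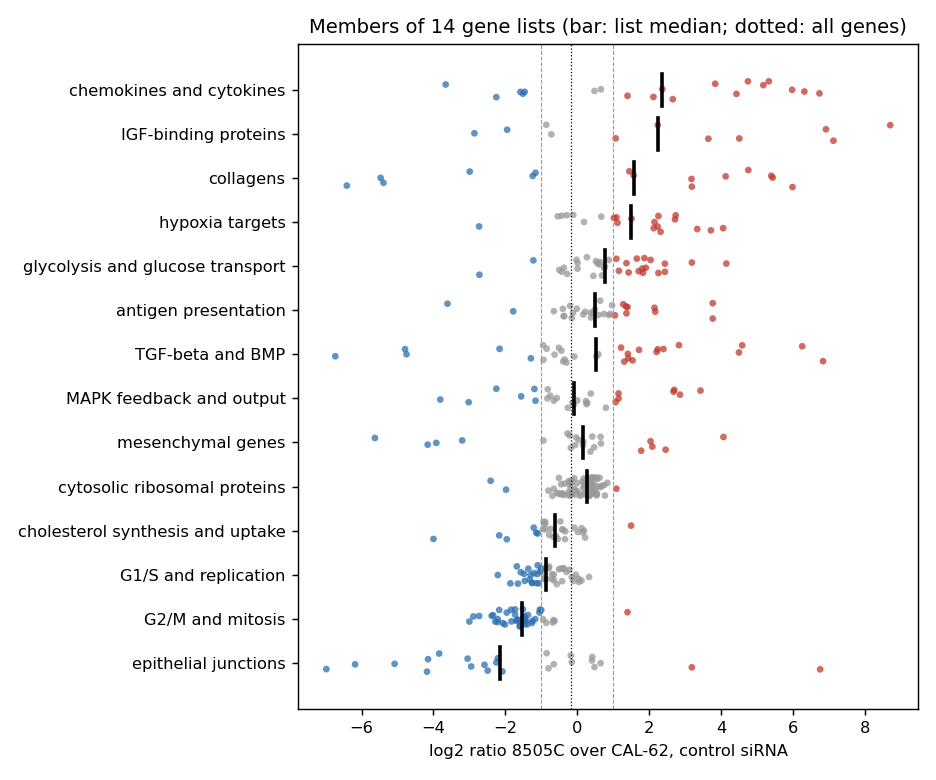
Log2 ratio of 8505C over CAL-62 with control siRNA for the members of 14 gene lists, 1 point a gene, with the list median as a bar and the median of all genes as a dotted line. Chemokines and cytokines stand at 2.37, G2/M genes at -1.55 and epithelial junctions at -2.15.

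Genes of cell division were lower in 8505C with control siRNA, and the gap was narrower with NR1D1 siRNA. Of 43 G2/M genes 36 were at least 2-fold lower and 1 higher, with a median of -1.55 in the control pair and -0.44 in the NR1D1 siRNA pair, where 12 of the 36 stayed past 2-fold. Under the trimmed mean scaling 31 were lower with a median of -1.20, and with MT- genes kept 16 were lower with a median of -0.85. MKI67, the Ki-67 antigen, was 43.6 in 8505C against 199 in CAL-62 with control siRNA and 59.3 in 8505C against 143 in CAL-62 with NR1D1 siRNA. CCNB1, cyclin B1, was 162 in 8505C against 514 in CAL-62 with control siRNA and 341 in 8505C against 452 in CAL-62 with NR1D1 siRNA. The spindle genes ASPM and KIF14 had log2 ratios of -3.00 and -2.73. Only CDC25B, a phosphatase that activates CDK1, was higher, at 406 in 8505C against 153 in CAL-62.

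Replication and repair genes had medians below 0 as well. Of 45 G1/S genes 19 were at least 2-fold lower and none higher, with a median of -0.87 in the control pair and -0.21 in the NR1D1 siRNA pair. The trimmed mean left 8 of them lower with a median of -0.51, and MT- genes kept left 2 lower and 1 higher with a median of -0.15. Of 47 DNA repair genes 18 were lower and none higher, with medians of -0.57 and -0.51, and the control median turns to 0.09 when MT- genes are kept. MCM7, of the replicative helicase, was 82.9 in 8505C against 304 in CAL-62. MGMT, which removes alkyl groups from guanine, was 0.301 in 8505C against 13.3 in CAL-62 with control siRNA and 0.209 in 8505C against 10.02 in CAL-62 with NR1D1 siRNA. BLM, a helicase of recombination, was 6.004 in 8505C against 54.8 in CAL-62. EZH2, the methyltransferase of the Polycomb complex, was 26.2 in 8505C against 107 in CAL-62.

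Glycolysis and hypoxia lists had medians above 0. Of 35 glycolysis genes 16 were at least 2-fold higher and 2 lower, with a median of 0.77 in the control pair and 0.96 in the NR1D1 siRNA pair. ENO1, enolase, was 4093 in 8505C against 752 in CAL-62 with control siRNA and 4318 in 8505C against 775 in CAL-62 with NR1D1 siRNA. LDHA was 2615 in 8505C against 735 in CAL-62, GAPDH 7126 in 8505C against 2763 in CAL-62, and the glucose transporter SLC2A3 97.4 in 8505C against 4.56 in CAL-62. The main glucose transporter SLC2A1 did not follow, at 108 in 8505C and 145 in CAL-62. Of 21 hypoxia genes 14 were higher and 1 lower, with a median of 1.51. HIF1A, the oxygen-regulated factor, was 1265 in 8505C against 252 in CAL-62, and EPAS1, its paralog HIF-2 alpha, 297 in 8505C against 44.1 in CAL-62. NDRG1, a known HIF target, was 449 in 8505C against 43.6 in CAL-62, while VEGFA was 70.6 in 8505C and 61.7 in CAL-62. CXCR4 was lower, at 11.2 in 8505C against 79.9 in CAL-62. The oxygen and density of the cultures are not given in the sources used here.

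Redox genes were uneven. Of 37 NRF2 and glutathione genes, 12 were at least 2-fold higher and 2 lower. NQO1, the quinone reductase, was 551 in 8505C against 87.0 in CAL-62. GPX3, the secreted glutathione peroxidase, was 4.56 in 8505C against 140 in CAL-62. Metallothioneins, which bind zinc and copper, gave the lowest ratio of the comparison, with 1 of 4 higher and 3 lower. MT1E was listed at 0 in both 8505C libraries and was 904 with control siRNA and 398 with NR1D1 siRNA in CAL-62, at least 968-fold lower in 8505C. MT2A was 688 in 8505C against 3736 in CAL-62 with control siRNA and 952 in 8505C against 1478 in CAL-62 with NR1D1 siRNA, and MT1X was higher in 8505C at 33.6 against 10.9 in CAL-62. MT1 genes are near-identical copies, so reads may be split between them. The same holds for HSPA1A, the inducible HSP70, at 0.396 in 8505C against 84.1 in CAL-62, and its copy HSPA1B.

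Few members of the housekeeping classes were past 2-fold. Of 81 cytosolic ribosomal protein genes 1 was at least 2-fold higher and 2 lower, with a median of 0.26 in the control pair and 0.65 in the NR1D1 siRNA pair, though 39 are higher when MT- genes are kept. The lower pair was RPL22L1 at -2.41 and RPS10 at -1.98, where 39.4% of the exon bases of RPS10 overlap another gene. Of 68 nuclear subunits of the respiratory chain 3 were higher and 2 lower, with a median of -0.05, beside the larger share of MT- RNA in CAL-62. Proteasome genes had a median of -0.10 and BCL2 family genes one of 0.12. Cholesterol genes had 6 of 28 lower and 1 higher, beside 17.3% and 9.98% of all genes. The cholesterol median of -0.63 turns to 0.08 when MT- genes are kept. Of 19 clock genes 1 was higher and 5 lower, beside 9.98% and 17.3% of all genes. The higher one was NFIL3, a repressor that shares sites with the PAR-domain factors, at 167 in 8505C against 23.4 in CAL-62.

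Some of the widest gaps belonged to neuronal and imprinted genes. NEFH and INA, neurofilament subunits, were 0 and 0 in 8505C against 388 and 151 in CAL-62 with control siRNA, and 0.360 and 0 in 8505C against 146 and 128 in CAL-62 with NR1D1 siRNA. PEG10, an imprinted gene derived from a retrotransposon, was listed at 0 in both 8505C libraries and was 384 with control siRNA and 445 with NR1D1 siRNA in CAL-62. BEX1 and BEX4, neighbours on chromosome X, went opposite ways with log2 ratios of 5.34 and -5.00. On the higher side, SRGN, the proteoglycan serglycin of secretory granules, was 1088 in 8505C against 0 in CAL-62 with control siRNA and 783 in 8505C against 0 in CAL-62 with NR1D1 siRNA, at least 1359-fold higher. BASP1, a growth cone protein, was 626 in 8505C against 1.21 in CAL-62. C3, the central complement component, was 184 in 8505C against 0.274 in CAL-62. Of all genes compared, 57 were listed at 0 in the 8505C control library, 41 of them in both 8505C libraries, and 85 at 0 in that of CAL-62, 62 of them in both.

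Gaps also ran along chromosomes. With neighbours in GENCODE 29 order, 42 runs of at least 4 compared genes were all past 2-fold the same way, 12 higher and 30 lower in 8505C, and they held 197 genes. The longest, of 11 genes from ATXN3 on chromosome 14, was higher with a median of 1.61 in the control pair and 1.56 in the NR1D1 siRNA pair, and all 11 genes kept their sign. Around it, from TTC7B to YY1, 28 of 33 genes were at least 2-fold higher and none lower, with a median of 1.47. At the end of chromosome 12, from SFSWAP to ZNF10, 16 of 19 genes were at least 2-fold lower, with a median of -1.28 in the control pair and -1.54 in the NR1D1 siRNA pair. Clusters of zinc finger genes made up 6 runs with at least 4 such genes each. Chromosome medians ranged from -0.56 on chromosome 12 to 0.27 on chromosome 21. Under the trimmed mean scaling 30 runs were higher and 7 lower. The windows were picked after values were seen, and DNA copy number was not measured.

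**Figure D5:**
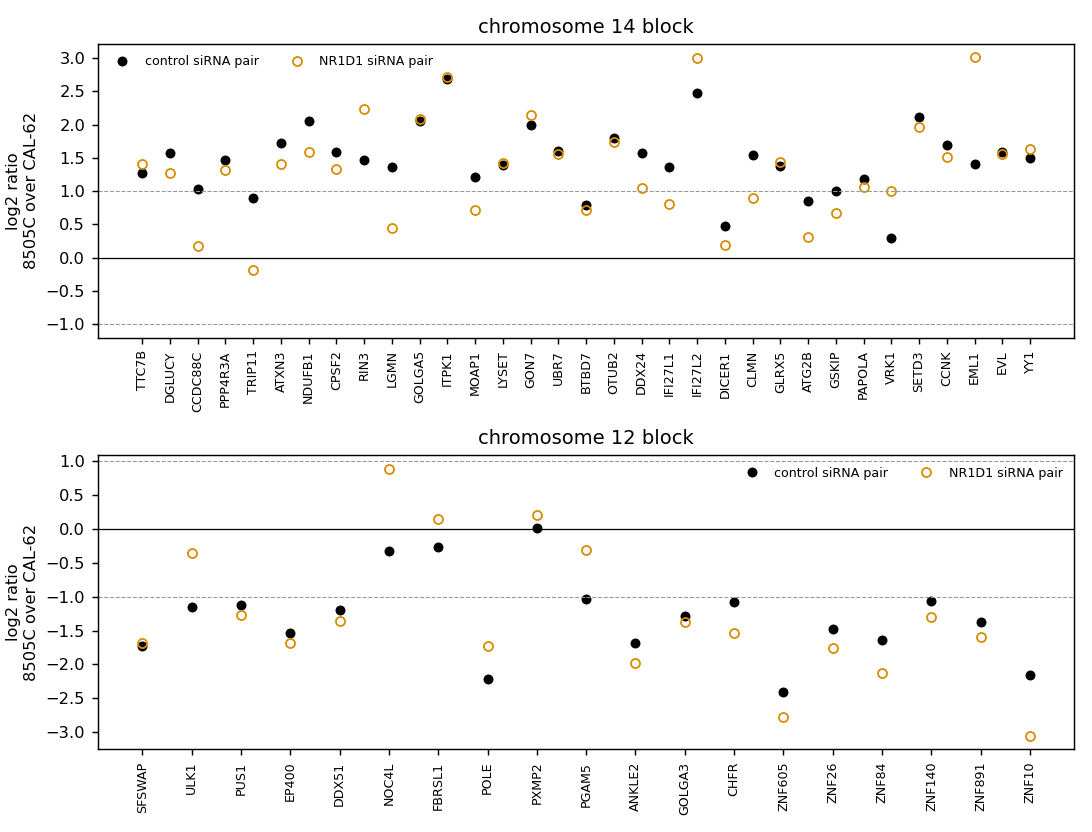
Log2 ratio of 8505C over CAL-62 for each compared gene of a block on chromosome 14 and one at the end of chromosome 12, in chromosome order, with filled points for the control pair and open points for the NR1D1 siRNA pair. On chromosome 14 all 33 control points are above 0, and at the end of chromosome 12 PXMP2, at 0.01, is the only control point above 0.

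A few wide gaps did not persist. Of the 1092 genes past 4-fold, 9 changed sign with NR1D1 siRNA. FGFBP1, a carrier of fibroblast growth factors, was 22.4 in 8505C against 336 in CAL-62 with control siRNA but 284 in 8505C against 128 in CAL-62 with NR1D1 siRNA. THBD, thrombomodulin, and ADAMTS15, a matrix protease, went the same way, with log2 ratios of -2.24 and -3.53 in the control pair and 0.63 and 0.40 in the NR1D1 siRNA pair. SCEL, sciellin of cornified cells, was 37.9 in 8505C against 3.64 in CAL-62 with control siRNA and 39.4 in 8505C against 40.3 in CAL-62 with NR1D1 siRNA. GPAT3 and SIRPB1 had log2 ratios of 2.36 and 2.33 in the control pair and -0.29 and -0.64 in the NR1D1 siRNA pair.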

How the data were processed

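Per the labels' protocols, total RNA was extracted with Trizol and sequenced as Illumina libraries. Per the submitters' processing notes, FastQC, MultiQC, Trimmomatic 0.38, featureCounts 2.0.0 and GRCh38 were used. The aligner and the strand setting of the counting are not given in the sources used here. Deposited TPM of 8505C and CAL-62 sum to 1000000 per library in a table per line. The deposited values of TPC-1 and FTC-133 were read as FPKM, since they do not sum to 1000000. Values of 1 to 10 reads came out whole within 0.02 reads in 92.7% to 93.7% of cases in the 4 libraries of 8505C and CAL-62, and these reads were used for the intervals, exact and at 95%. A gene listed at 0 was set at the limit of 3 reads per library for an at-least fold. Protein-coding genes and their order were taken from GENCODE 29, and promoter windows from RefSeq. Python 3.11.15 with pandas 2.3.3, numpy 2.4.6, scipy 1.17.1 and matplotlib 3.10.9 was used, and the ratio was tested on simulated data.

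Genes with a mean of 5 or more were compared by log2 ratio with 1 added. The members and the 63 gene lists were chosen with earlier results of these data known. Genes were named by rule: the 15 highest and 15 lowest ratios, the 4 widest members of each list, the 5 largest losses of gap per direction, the 10 of highest level past 4-fold per direction, NR1D1, BRAF, PAX8 and opposite paralogs. Some genes that the rule names are not reported here. Other genes named were chosen after their values were seen. The alternatives tried were the value added, the level limit, the scaling, the biotypes and the NR1D1 siRNA libraries.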

Additional observations from a re-analysis of the deposited data

Results flagged for a closer look

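A set of 7 genes past 2-fold in the control pair was past 2-fold the other way in the NR1D1 siRNA pair, and the difference between the pairs was not tested. Log2 ratios are of 8505C over CAL-62. SLPI, a secreted protease inhibitor, was 222 in 8505C and 60.6 in CAL-62 with control siRNA, and 24.2 in 8505C and 83.9 in CAL-62 with NR1D1 siRNA, with log2 ratios of 1.86 and -1.75. GFPT2, of hexosamine synthesis, had log2 ratios of 1.42 in the control pair and -1.05 in the NR1D1 siRNA pair. The other genes were lower in 8505C in the control pair. CA2, a carbonic anhydrase, had ratios of -1.01 in the control pair and 3.08 in the NR1D1 siRNA pair, and TNFSF18, a ligand of the TNF family, -1.24 and 2.34. ATF3, a stress-induced transcription factor, was 8.43 in 8505C and 35.8 in CAL-62 with control siRNA, and 14.7 in 8505C and 6.32 in CAL-62 with NR1D1 siRNA, with ratios of -1.97 and 1.1. KRTAP2-3, a keratin-associated protein, had ratios of -2.22 and 1.36, and FGFBP1 had -3.85 and 1.14.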

How the results depend on the processing

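Of the counts recomputed under the alternatives 66 stayed within 1.5 times and 19 did not, and of the single genes 9 values changed sign, all with the NR1D1 siRNA libraries. The counts of genes at least 2-fold higher and lower, 1054 and 1829, came to 610 and 1004 at a mean of 20 or more, 2558 and 552 with MT- genes kept and 1699 and 1139 with the trimmed mean, with 1655 higher under no filter and 2978 lower over all biotypes. Lists with a median of 1 or more, 7 in the report, were 2 under no filter, 21 with MT- genes kept and 12 with the trimmed mean, and those at -1 or less were 1 under no filter. Of the 15 highest ratios, 9 stayed among the 15 highest with 0.1 added and 8 in the NR1D1 siRNA pair. Paralog pairs going opposite ways past 4-fold came to 1. Runs of neighbours were 27 higher and 59 lower at a mean of 1 or more, and 30 higher and 7 lower with the trimmed mean. The fibroblast marker median turned to 0.65 at a mean of 1 or more and 0.42 under no filter, the muscle marker median to -0.11 under no filter, and the collagen median to -0.47 when genes were chosen on the NR1D1 siRNA libraries. In that pair SCEL stood at -0.03, GPAT3 at -0.29, SIRPB1 at -0.64, HES1 at 0.04, ATF3 at 1.1, KRTAP2-3 at 1.36, THBD at 0.63, ADAMTS15 at 0.40 and FGFBP1 at 1.14. The cause was not tested. No paired analysis was possible because each group had 1 library and the labels give no replicate numbers. With 1 library a line, no spread between cultures is known, and separately scaled tables leave line and table impossible to tell apart.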
